A study of Mus musculus with 168 samples.

Results

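The cortex of young mice carrying a long huntingtin repeat was compared with that of age-matched mice carrying a short one. The 16 libraries were those whose titles name a heterozygous Q175 or Q20 mouse at 2 months, out of 168 libraries of the series, with 8 libraries a genotype (4 females and 4 males in each). Q175 mice carried 1 Htt allele with a knocked-in CAG repeat of nominally 175 units, and Q20 mice 1 allele with nominally 20 units. The other allele was unmodified in both, all mice were of the C57BL/6 strain, and the labels name no treatment. Per the labels, each mouse lived with mice of its own allele, so that housing and allele cannot be told apart. The rest of the series served for comparison, namely Q80, Q92, Q111, Q140 and wild-type (WT) cortex at 2 months and Q175 and Q20 cortex at 6 and 10 months. The labels number the replicates within each sex without saying that each is a separate mouse, so that p-values rest on the spread between libraries. In the reported fit of 2 months that spread came from all 56 libraries of that age.

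Huntington's disease is caused by expansion of a CAG repeat in the first exon of the huntingtin gene, which lengthens a run of glutamines in a large scaffold protein found in most cells. Projection neurons of the striatum are the most vulnerable cells, and the cortical neurons that innervate them are affected too. Knock-in mice express the lengthened protein from the mouse gene itself, in every tissue, and molecular and motor changes appear gradually with age. At 2 months a mouse is a young adult.

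The start of the mouse Htt coding sequence is shown because the knocked-in repeat lies within it. In the reference genome (GRCm38, GENCODE M21 transcript of Htt, plus strand, chr5:34761907-34762026) the longest uninterrupted run of glutamine codons, in capitals, is codons 18 to 24, of which 6 are CAG and 1 is CAA, in the first of 67 coding exons.
Htt coding start: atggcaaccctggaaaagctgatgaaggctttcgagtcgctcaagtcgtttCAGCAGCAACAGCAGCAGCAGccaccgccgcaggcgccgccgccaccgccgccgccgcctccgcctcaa
This run holds 7 codons, and the nominal lengths of the knocked-in alleles, whose own sequences were not used here, are 20 and 175 CAG units. The deposited counts are per gene, so that transcripts of both alleles are summed in every Htt value.

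Estimated counts per gene summed to between 30777599 and 40770895 in the Q175 libraries and between 29402311 and 34457929 in the Q20 libraries. The sex labels matched the Q175 and Q20 libraries, with 1158 to 1292 Xist CPM (counts scaled to a common library size) in Q175 females and 969 to 1290 Xist CPM in Q20 females, against at most 2.37 Xist CPM in any male of either genotype. The Y-linked gene Ddx3y had 59.7 to 68.1 CPM in these males. Among the other genotypes, Q80 male 1 had 0 Ddx3y CPM and 1.02 Xist CPM, and it entered the fit of 2 months as a male. Markers of cortical excitatory neurons were abundant in every library, with a summed level of 5814 to 6605 CPM in Q175 and 5546 to 6269 CPM in Q20 for 12 genes. Among the 56 libraries of 2 months, 4 stood apart, with a median correlation of log2 CPM with the others of 0.9683 to 0.9791. None of the 4 was a Q175 or Q20 library (1 WT, 2 Q80 and 1 Q92), but all entered the estimate of the spread. The 16 Q175 and Q20 libraries had median correlations of 0.9889 to 0.9913.

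No gene passed the threshold in the comparison of Q175 with Q20 cortex at 2 months. Of 17194 genes tested, 0 (0%) had an adjusted p under 0.05 by edgeR's quasi-likelihood test with Benjamini-Hochberg adjustment, fitted on all 56 libraries of that age with sex as a covariate. At an unadjusted p under 0.05 there were 567 genes (3.3%), of which 169 (0.983%) were higher and 398 (2.31%) were lower in Q175. DESeq2 on the same libraries called 3 genes, 1 higher and 2 lower, with 562 at an unadjusted p under 0.05. The median standard error of a log2 difference was 0.0785.

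The size of the call list differed between fits, and the cause was not tested. With the 16 libraries alone, 5 of 16490 genes (0.0303%) passed, namely Htt, Ush1g, Shisa8 and Pcp4l1, all lower in Q175, and the pseudogene model Gm5067, which was higher. Without the 4 libraries of other genotypes that stood apart, an alternative chosen after the values were seen, 3 of 17251 genes (0.0174%) passed, which were Htt and Gpr153, lower, and Gm5067, higher. The biological coefficient of variation (the spread between libraries beyond counting error) was 0.115 with all 56 libraries, 0.0745 with the 16 and 0.075 without those 4. Without the 2-month libraries whose median correlation was under 0.99, which leaves 6 in each genotype, 1 of 17306 genes (0.00578%) passed, namely Htt, lower in Q175. The coefficient of that fit was 0.0618, the lowest of those given, so that the number of calls did not follow the spread alone. Limma with quality weights, which gives less weight to libraries that stand apart, called 11 genes (0.064%), 1 higher and 10 lower. In the fit of the 48 Q175 and Q20 libraries of all 3 ages, also added after the values were seen, the 2-month contrast called 33 of 17257 genes (0.191%), 2 higher and 31 lower.

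Htt itself had a lower summed transcript level in Q175 cortex. In the 8 Q175 libraries it ranged over 142, 163 and 176 CPM (lowest, median and highest), against 175, 209 and 231 CPM in the 8 Q20 libraries. Every one of the 8 Q175 libraries was under the median of Q20, and the groups overlapped only in the highest Q175 library, a female, and the lowest Q20 library, a male. The means were 161 ± 10.1 CPM in Q175 and 206 ± 17.3 CPM in Q20 (SD, n = 8 each). The log2 difference was -0.36 ± 0.11 (SE) and did not pass in the fit of all 56 libraries (edgeR adjusted p = 0.72). With the 16 libraries alone the difference was again -0.36, with a standard error of 0.05 and an edgeR adjusted p of 0.011. It was -0.31 in females and -0.41 in males.

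Across all genotypes of 2 months, the order of Htt means from low to high was Q175 at 161 ± 10.1 CPM, Q140 at 175 ± 10.2, WT at 192 ± 27.5, Q80 at 195 ± 51.6, Q92 at 200 ± 38.1, Q111 at 203 ± 13.5 and Q20 at 206 ± 17.3 CPM (SD, n = 8 each). The ranges of neighbours in this order overlapped in every case. The 4 libraries that stood apart had 110 to 131 Htt CPM, under every Q175 library, and set part of this order. Without them the means were 161 CPM in Q175, 175 in Q140, 200.4 in WT, 203 in Q111, 206 in Q20, 213 in Q92 and 223 in Q80, so that Q20 was no longer the highest. Against WT, the Q175 log2 difference of Htt was -0.25 ± 0.11 (SE, edgeR adjusted p = 0.82), and the Q140 difference from Q20 was -0.24 ± 0.11 (SE, edgeR adjusted p = 1).

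**Figure D1:**
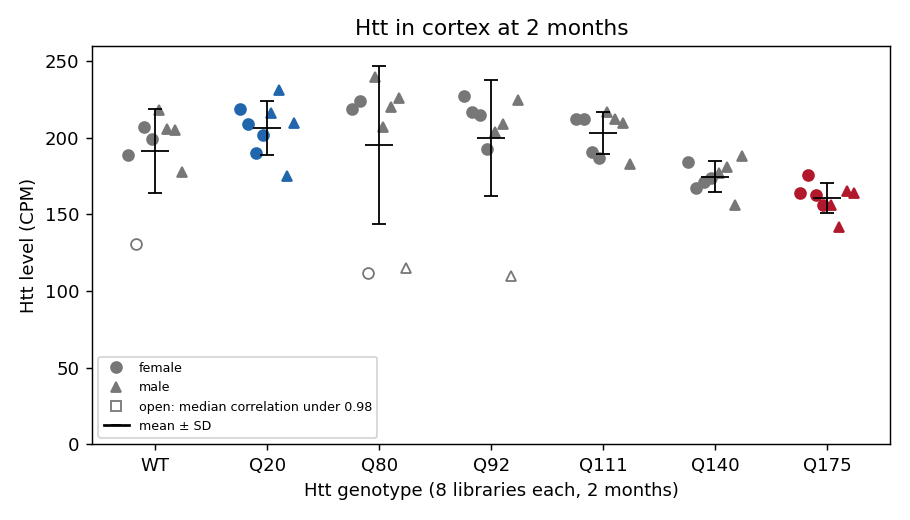
Htt level in CPM for each library at 2 months, by genotype, with circles for females, triangles for males, open symbols for the 4 libraries with a median correlation under 0.98, and bars for mean ± SD (n = 8 each). The Q175 libraries lie between 142 and 176 CPM and the Q20 libraries between 175 and 231 CPM, and the 4 open symbols lie at 110 to 131 CPM.

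**Figure D2:**
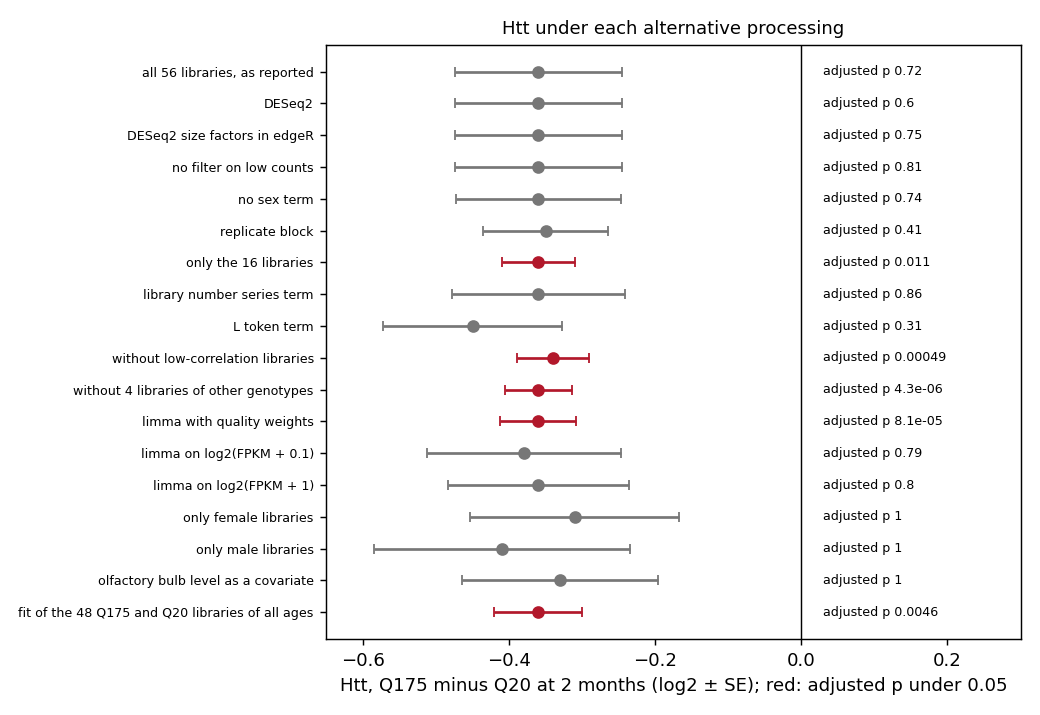
Log2 difference of Htt between Q175 and Q20 at 2 months (horizontal axis, ± SE) under each way of processing, with adjusted p at the right and red for those under 0.05. Fits that leave out single libraries and the fit of log2 FPKM without a filter are not shown. The estimate stayed between -0.45 and -0.31, and the adjusted p passed in 5 alternatives that differ in the libraries, weights or ages that set the spread.

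Genes with the smallest p were led by those lower in Q175. Gpr153, an orphan G protein-coupled receptor (chromosome 4, 152274232 to 152285337, plus strand), had the smallest p of all. Its levels were 21.7, 23.6 and 25.5 CPM in Q175 (lowest, median, highest), against 25, 27.9 and 31.3 CPM in Q20. Of the 8 Q175 libraries, 7 lay under every Q20 library. The log2 difference was -0.24 ± 0.05 (SE, edgeR adjusted p = 0.16), and DESeq2 gave an adjusted p of 0.033. Rerg, a small Ras-related GTPase, had 5.18, 5.92 and 7.92 CPM in Q175, against 7.34, 7.94 and 8.28 CPM in Q20. The difference of Rerg was -0.35 ± 0.08 on the log2 scale (SE, edgeR adjusted p = 0.17). In 6 of the 8 Q175 libraries Rerg lay under every Q20 library, and the other two were within the Q20 range. When each library was left out in turn, the adjusted p of Rerg was 0.035 without Q175 female 1. The Rerg level of that library was the highest of its group. Leaving it out widens the difference by construction, so that this value supports no reading.

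Gad1, the enzyme that makes the transmitter GABA in interneurons, had 307, 326 and 396 CPM in Q175, against 364, 414 and 441 CPM in Q20 (log2 difference -0.26 ± 0.06, SE, edgeR adjusted p = 0.17). Cacng5, an auxiliary subunit of AMPA-type glutamate receptors, had 8.72, 11.4 and 19.4 CPM in Q175, against 15.5, 19.4 and 22.8 CPM in Q20. Its difference was -0.67 ± 0.16 (SE, edgeR adjusted p = 0.36), and 7 of 8 Q175 libraries lay under every Q20 library. Calb2, the calcium-binding protein calretinin, had 13.1, 15.8 and 28.2 CPM in Q175, against 23.2, 29.8 and 38.9 CPM in Q20. The Calb2 difference was -0.80 ± 0.20 (SE, edgeR adjusted p = 0.38). In both Cacng5 and Calb2 the single high Q175 library was male 3. The remaining genes lower in Q175 by this rule were at low levels, with Q175 means of 3.85 CPM or less. Rec8, a cohesin subunit of meiosis, differed by -0.58, Lsmem1 by -0.75 and Chrna3, a nicotinic acetylcholine receptor subunit, by -0.85 on the log2 scale, and none passed.

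Of genes higher in Q175, Fes, a cytoplasmic tyrosine kinase (chromosome 7, 80377756 to 80387946, minus strand), had the smallest p. It had 2.98, 3.24 and 3.62 CPM in Q175, against 1.98, 2.58 and 3 CPM in Q20. In 7 of 8 Q175 libraries the level exceeded that of every Q20 library, and the log2 difference was 0.35 ± 0.09 (SE, edgeR adjusted p = 0.38). Limma with quality weights gave Fes an adjusted p of 0.033. Ide, the insulin-degrading enzyme, had 80.2, 96.6 and 116 CPM in Q175, against 51.6, 67.6 and 83.6 CPM in Q20 (log2 difference 0.53 ± 0.16, SE, edgeR adjusted p = 0.58). Levels of Ide also varied widely within WT at 2 months, from 52.3 to 117 CPM. The Q175 difference from Q20 for Ide was 0.22 at 6 months and -0.03 at 10 months. Capn1, the protease calpain-1, had 18.8, 20.2 and 20.9 CPM in Q175, against 17.7, 18.2 and 19.7 CPM in Q20, with 7 of 8 Q175 libraries over every Q20 library. Its log2 difference was 0.13 ± 0.04 (SE, edgeR adjusted p = 0.59). Mcm5, a subunit of the replicative helicase, differed by 0.26 ± 0.08 on the log2 scale (SE) and did not pass.

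**Figure D3:**
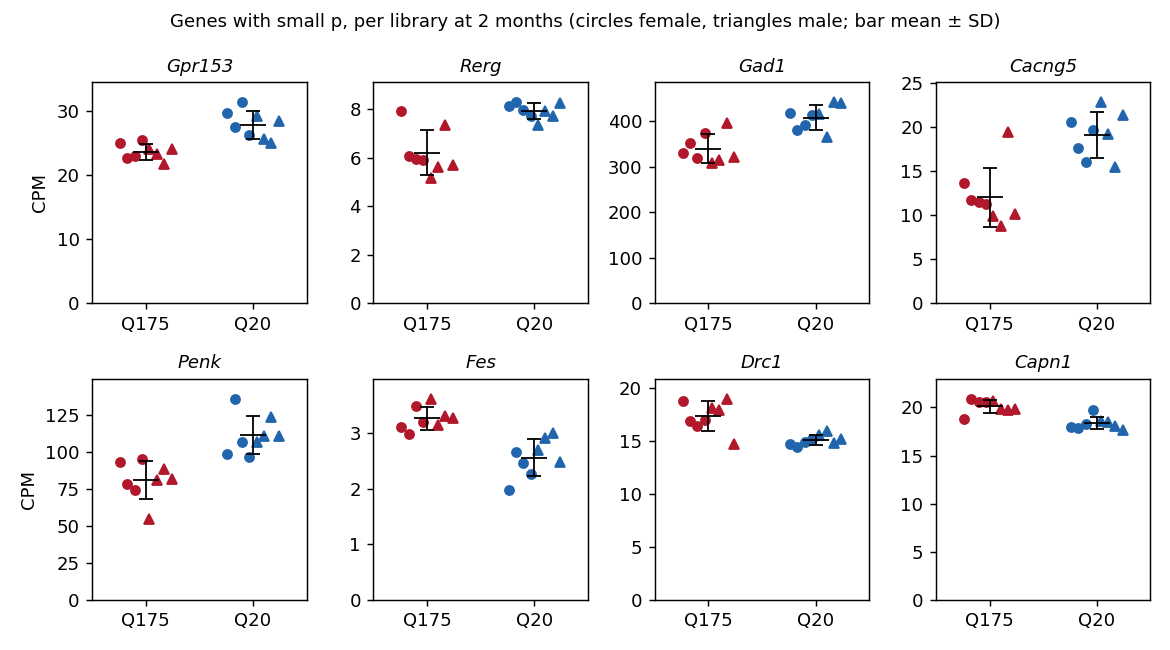
Level in CPM of 8 genes in each library at 2 months, with Q175 left of Q20, circles for females, triangles for males and bars for mean ± SD (n = 8 each). Penk separates the groups, and the others overlap, as in Cacng5, where the highest Q175 library has 19.4 CPM and the others at most 13.7 CPM.

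Complete separation of the genotypes was rare. In 5 of 17194 genes (0.0291%) the Q175 and Q20 libraries did not overlap, 3 (0.0174%) higher and 2 (0.0116%) lower in Q175. These were chosen after their values were seen. The 3 higher genes were Gm5067, the antisense model Gm11725 and Cenpt, a centromere protein with 11 to 11.8 CPM in Q175 and 9.92 to 11 CPM in Q20. The lower genes were Ctxn3, a cortexin with 2.06 to 3.28 CPM in Q175 and 3.41 to 3.86 CPM in Q20, and Penk. Penk encodes proenkephalin, the precursor of opioid peptides made by striatal projection neurons and some cortical interneurons. Penk had 54.4, 81.5 and 95.3 CPM in Q175, against 96.9, 109 and 136 CPM in Q20, a log2 difference of -0.46 ± 0.13 (SE, edgeR adjusted p = 0.58). Against WT, whose Penk levels were 96 to 138 CPM, the Q175 difference was -0.53 ± 0.13 (SE, edgeR adjusted p = 0.78).

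On chromosome 5, which carries Htt, 2 of 120 genes tested within 5 Mb of it were higher (1.67%) and 1 was lower (0.833%) at an unadjusted p under 0.05, beside 0.983% higher and 2.31% lower of all genes tested, and none passed. Within 10 Mb, wider than the set flank of 5 Mb, 8 of 162 were higher (4.94%) and 3 were lower (1.85%), again with none past the threshold. The higher genes included the gene models Gm5067, Gm10471, Gm5862 and 5031410I06Rik, all 8.66 to 8.75 Mb before Htt. As these are neighbours, the share of 4.94% cannot be read as a rise around Htt as a whole. Drc1, a subunit of the regulatory complex of ciliary dynein 4.48 Mb before Htt, had 14.7, 17.4 and 19 CPM in Q175, against 14.4, 15 and 16 CPM in Q20 (log2 difference 0.20 ± 0.05, SE, edgeR adjusted p = 0.40). Msantd1, which overlaps the end of Htt in the annotation, had 1.87, 2.07 and 2.79 CPM in Q175, against 1.96, 2.54 and 3.43 CPM in Q20, a difference of -0.29 ± 0.11 (SE, edgeR adjusted p = 1). Overlapping genes can share reads, so that the Msantd1 value is uncertain. Galnt11, a glycosyltransferase 9.54 Mb before Htt, differed by 0.17 ± 0.04 (SE, edgeR adjusted p = 0.40), and Gm5067, 8.75 Mb before Htt, had 0.535 to 1.52 CPM in Q175 and 0.215 to 0.528 CPM in Q20. Against the same Q20 libraries, Drc1 differed by 0.20 in Q80, 0.28 in Q92, 0.27 in Q111 and 0.26 in Q140. In that order Galnt11 differed by 0.23, 0.09, 0.21 and 0.15, and Gm5067 by 1.58, 0.73, 1.64 and 1.78. Msantd1 differed by 0.02, -0.04, -0.05 and -0.30. Of these, Drc1 in Q92 (edgeR adjusted p = 0.024) and Galnt11 in Q80 (0.013) passed. WT differed from Q20 by 0.02 for Drc1, -0.01 for Galnt11, 0.19 for Gm5067 and -0.09 for Msantd1.

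Marker genes of interneurons, striatal projection neurons and oligodendrocytes leaned lower in Q175, with none past the threshold. The summed level of 15 olfactory bulb markers was 289 to 438 CPM in Q175 and 335 to 484 CPM in Q20, and Calb2 belongs to both the interneuron and the olfactory list. With the olfactory level as a covariate, the log2 difference was -0.07 for Gad1, -0.01 for Dlx1, -0.01 for Meis2 and -0.28 for Scn4b. That covariate is the mean of genes listed after their differences between these groups were seen. A value nearer to 0 under it is in part fixed by that choice and supports no reading. Without Q175 male 3, Gad1, Dlx1 and Calb2 passed. Male 3 had the highest Q175 level of each, so that leaving it out widens these differences by construction and supports no reading. In bulk tissue, fewer cells of a type and less RNA per cell cannot be told apart. Of 22 interneuron markers, 8 were lower and 0 higher at an unadjusted p under 0.05, and the median log2 difference was -0.125. Over all genes tested, 2.31% were lower and 0.983% higher at that level, and the median was 0.003. Their summed level was 1566 to 1797 CPM in Q175 and 1760 to 1894 CPM in Q20. Dlx1, a homeobox factor of interneurons, had 34.3, 36.8 and 52 CPM in Q175, against 42.6, 48 and 53.8 CPM in Q20 (log2 difference -0.31 ± 0.08, SE, edgeR adjusted p = 0.40). Of 22 striatal markers, 10 were lower and 0 higher, with a median of -0.225. The summed striatal level was 984 to 1434 CPM in Q175 and 1339 to 1668 CPM in Q20. Meis2, a homeobox factor, had 91.7, 111 and 134 CPM in Q175, against 125, 133 and 145 CPM in Q20. Scn4b, a sodium channel subunit, had 73.2, 96.4 and 107 CPM in Q175, against 105, 109 and 140 CPM in Q20. The differences were -0.26 ± 0.07 for Meis2 (edgeR adjusted p = 0.53) and -0.27 ± 0.09 for Scn4b (SE, edgeR adjusted p = 0.80).

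Of 20 oligodendrocyte markers, 7 were lower and 0 higher at an unadjusted p under 0.05, with a median of -0.056. The summed level of the 20 genes was 4437 to 5322 CPM in Q175 and 4667 to 6058 CPM in Q20. Of 13 deep-layer markers, 3 were lower and 0 higher at that level, while 6 had positive and 7 negative differences, with a median of -0.003. Syt6, a synaptotagmin of corticothalamic neurons, differed by -0.41 ± 0.13 (SE, edgeR adjusted p = 0.65), and by -0.01 with the olfactory bulb level as a covariate. The latter value is again in part fixed by how that covariate was chosen and supports no reading. None of the markers of astrocytes, microglia, endothelium, upper layers or excitatory neurons had an unadjusted p under 0.05. Over the 206 marker genes tested, 28 were lower and 1 was higher, or 14.1% against 3.3% of all genes.

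Pathway genes gave shares near the background. Of 387 genes tested in 19 lists (among them receptors, channels, heat shock, stress responses, cholesterol synthesis, respiratory chain and DNA mismatch repair), 11 were lower and 4 higher in Q175 at an unadjusted p under 0.05, or 3.88%. Over all genes tested the share was 3.3%. The list medians ran from -0.175 to 0.041, and 18 of 19 were within 0.1 of 0. Serpina3n, a protease inhibitor made by reactive astrocytes, was the 1 gene of 17 in the reactive glia list at that level. It had 6.77, 8.28 and 10.1 CPM in Q175, against 9.13, 9.65 and 11.6 CPM in Q20 (log2 difference -0.25 ± 0.07, SE, edgeR adjusted p = 0.48). In the list of cAMP, calcium and opioid signalling, 4 of 35 genes were lower, including Penk, beside 2.31% of all genes tested, and the median was -0.006. None of the 20 immediate early genes, 16 heat shock genes and 22 nuclear respiratory chain genes was at an unadjusted p under 0.05.

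Several of the lower genes are known markers of the olfactory bulb, which adjoins the cortex in dissection, and a list of 15 such markers was drawn up after the values were seen. All 15 had negative differences, 14 of them at an unadjusted p under 0.05, beside 2.31% lower of all genes tested, and their median log2 difference was -0.824. Eomes, a factor of mitral and tufted cells, had 0.243, 0.357 and 4.09 CPM in Q175, against 1.41, 4.07 and 6.27 CPM in Q20. Th, the enzyme of dopamine synthesis, had 1.5, 2.14 and 8.49 CPM in Q175, against 3.05, 7.61 and 10.9 CPM in Q20. Doc2g, a protein with paired C2 domains, had 2.82, 4.36 and 14.1 CPM in Q175, against 5.78, 12.9 and 18.2 CPM in Q20. In each of these genes the highest Q175 value was that of male 3, within the Q20 range, and the other Q175 libraries lay under every Q20 library.

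The same 7 Q175 libraries lay under every Q20 library for 11 of the 15 markers. As a mean log2 CPM over the list, Q175 libraries had 2.02, 2.11 and 3.56 (lowest, median, highest) and Q20 libraries 2.79, 3.48 and 3.78. The medians of the other genotypes at 2 months were 2.83 in WT, 2.30 in Q80, 2.17 in Q92, 2.57 in Q111 and 2.79 in Q140, so that Q20 had the highest median of the 7 genotypes. The list was drawn up after the values of Q175 and Q20 were seen. A high rank of Q20 and a low rank of Q175 are in part fixed by that choice. No marker was at 0 in any of the 16 libraries. With the olfactory level as a covariate, 278 genes (1.62%) were at an unadjusted p under 0.05 and 0 passed. The covariate was the mean of genes listed after their differences between these groups were seen, so that a value nearer to 0 under it, as in the list's own member Calb2, is in part fixed by that choice and supports no reading. With it, Cacng5 differed by -0.11, Htt by -0.33, Gpr153 by -0.21, Penk by -0.41 and Fes by 0.34. Without Q175 male 3, 16 of 17251 genes (0.0927%) passed, all lower in Q175, among them Gad1, Calb2, Cacng5, Dlx1, Sp8, Doc2g, Pbx3, Gng4 and Scgn. Male 3 had the highest Q175 level of each gene named here. Their passing is in part fixed by leaving it out and supports no reading. The part of the bulb in any difference was not tested further.

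**Figure D4:**
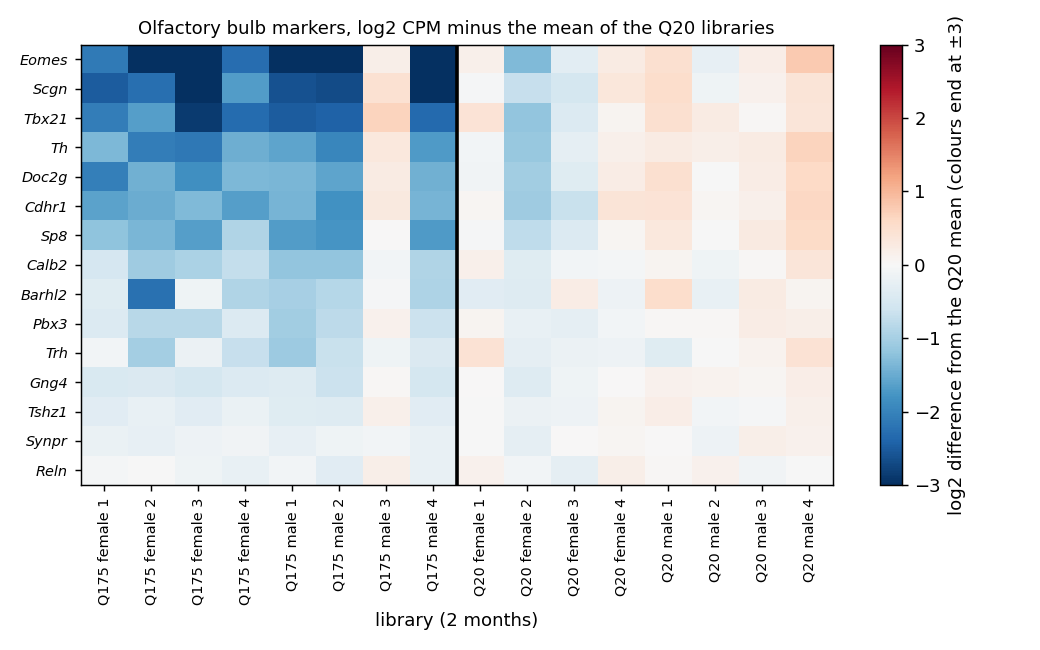
Log2 CPM of 15 olfactory bulb markers in each library at 2 months, minus the mean of the Q20 libraries, with Q175 libraries left of the line and Q20 libraries right of it. Blue cells fill 7 of the 8 Q175 columns, and the column of male 3 resembles the Q20 columns.

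Choroid plexus transcripts were highest in 1 Q175 library. The summed level of 15 markers was 274 to 1643 CPM in Q175 and 285 to 552 CPM in Q20. The highest Q175 value was that of male 2, and the next highest was 436 CPM. None of the 15 was at an unadjusted p under 0.05, with a median of 0.462.

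Males and females did not differ detectably in the effect of the allele. The test of the difference between sexes gave 0 of 17194 genes (0%) at an adjusted p under 0.05 by edgeR's quasi-likelihood test, 250 at an unadjusted p under 0.05, and 0 calls by DESeq2. The median standard error of that difference was 0.159 on the log2 scale. Penk differed between Q175 and Q20 by -0.36 in females and -0.56 in males, Gpr153 by -0.26 in females and -0.22 in males, and Fes by 0.45 in females and 0.27 in males.

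With WT in place of Q20, again no gene passed. Q175 against WT gave 0 of 17194 genes (0%), with 904 at an unadjusted p under 0.05, and WT against Q20 gave 0 (0%), with 530 at an unadjusted p under 0.05, both by edgeR's quasi-likelihood test. The other alleles against Q20 gave 8 genes for Q80 (0.0465%), 5 for Q92 (0.0291%), 0 for Q111 (0%) and 0 for Q140 (0%). At an unadjusted p under 0.05 there were 3249 genes for Q80, 941 for Q92, 447 for Q111 and 398 for Q140. All these comparisons share libraries with that of Q175 and Q20. Without the low-correlation libraries, an exclusion added for these alleles after the values were seen, Q80 gave 0, Q92 gave 9 and Q140 gave 3. Gpr153 had log2 differences from Q20 of -0.07 in Q80, -0.13 in Q92, -0.15 in Q111, -0.20 in Q140 and -0.24 in Q175, and of -0.16 from WT in Q175.

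At 6 and 10 months, other libraries of the same genotypes differed in many genes. In fits of each age alone, 1691 of 17611 genes (9.6%) passed at 6 months and 1310 of 17219 (7.61%) at 10 months, against 0 at 2 months. The fit of 2 months had a median standard error of 0.0785, that of 6 months 0.0528 and that of 10 months 0.0676, so that the fits were not equally precise. At 6 months the numbers that open the library names run from 20921 to 21103 in Q175 and from 28217 to 28399 in Q20, so that this series and the genotype cannot be told apart at that age, while at 2 and 10 months the ranges of both genotypes overlap. The genes called later were small in difference at 2 months. Of 826 genes higher at 6 months and tested at both ages, 70.5% were also higher at 2 months, with a median of 0.023 against 0.144 at 6 months. Of 859 genes lower at 6 months, 61.7% were also lower at 2 months, with medians of -0.014 at 2 months and -0.154 at 6 months. Of 490 genes higher at 10 months, 59.2% were higher at 2 months, and of 808 lower at 10 months, 49.8% were lower. Over all genes tested at 2 months and the later age, 54.9% had the same sign as at 6 months and 51.5% as at 10 months.

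The difference between ages was itself tested in one fit of the 48 Q175 and Q20 libraries. The Q175 effect at 6 months minus that at 2 months passed in 101 of 17257 genes (0.585%), 28 upward and 73 downward, and the effect at 10 months minus that at 2 months in 853 (4.94%), 306 upward and 547 downward. The 6-month count was again 101 without the low-correlation libraries, but with 73 upward and 28 downward. That exclusion left 5 Q175 and 3 Q20 libraries at 6 months. The 10-month count was then 89, with 3 libraries left in each genotype at 10 months.

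Several genes with small p in these tests were near 0 at 2 months, while others, such as Gpr153 at -0.24 and Gng4 at -0.41, were not. Lamp5, a membrane protein of upper-layer neurons and some interneurons, had 161, 184 and 205 CPM in Q175, against 166, 175 and 197 CPM in Q20 at 2 months. Its log2 differences at 2, 6 and 10 months were 0.05, -0.38 and -0.55 (edgeR adjusted p of the change from 2 to 10 months = 8.9e-10). Gabrd, the delta subunit of GABA-A receptors, differed by 0.01, -0.32 and -0.49 at the same ages (adjusted p of that change = 5e-10). Arpp21, a cAMP-regulated phosphoprotein, differed by -0.05, -0.27 and -0.34 (1.7e-08). Plk5, a polo-like kinase, differed by -0.02, -0.59 and -1.71 (1.9e-11).

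Upward with age went Onecut2, a transcription factor, with log2 differences of -0.10, 0.39 and 1.32 at 2, 6 and 10 months (edgeR adjusted p of the change from 2 to 10 months = 2.9e-11). Serpina3n had -0.25, 0.30 and 0.37 (1.6e-05), with its 2-month value on the other side of 0.

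Genes with small p at 2 months followed different courses with age. Htt differed by -0.36, -0.43 and -0.33 at 2, 6 and 10 months, with edgeR adjusted p of 6.8e-12 at 6 months and 0.0046 at 10 months and no detectable change between ages (adjusted p = 0.85 from 2 to 6 months and 0.92 from 2 to 10 months). Gpr153 differed by -0.24, -0.58 and -0.86, and the change passed from 2 to 6 months (adjusted p = 0.014) and from 2 to 10 months (1.2e-07). Penk differed by -0.46, -0.67 and -1.08, with a change from 2 to 10 months of -0.61 (adjusted p = 0.015). Penk averaged 80.9, 76.3 and 18.9 CPM in Q175 at the 3 ages, against 111, 122 and 39.8 CPM in Q20. Calb2 differed by -0.80, -0.27 and -0.07, and its change from 2 to 10 months of 0.73 passed (adjusted p = 0.037). Its levels averaged 17.5, 24.5 and 8.72 CPM in Q175 at the 3 ages, against 30.4, 29.7 and 9.14 CPM in Q20. Gng4, a G protein subunit of the olfactory list, differed by -0.41, 0.00 and 0.38, with a change of 0.79 (4.8e-06). At 10 months Th averaged 1.14 CPM in Q175 and 1.38 CPM in Q20, Sp8 1.48 CPM in Q175 and 1.65 CPM in Q20, and 4 of the 15 markers (Barhl2, Eomes, Scgn and Tbx21) were not tested. The median differences of the olfactory markers were -0.824 and -0.334 over 15 genes at 2 and 6 months and -0.102 over the 11 tested at 10 months.

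**Figure D5:**
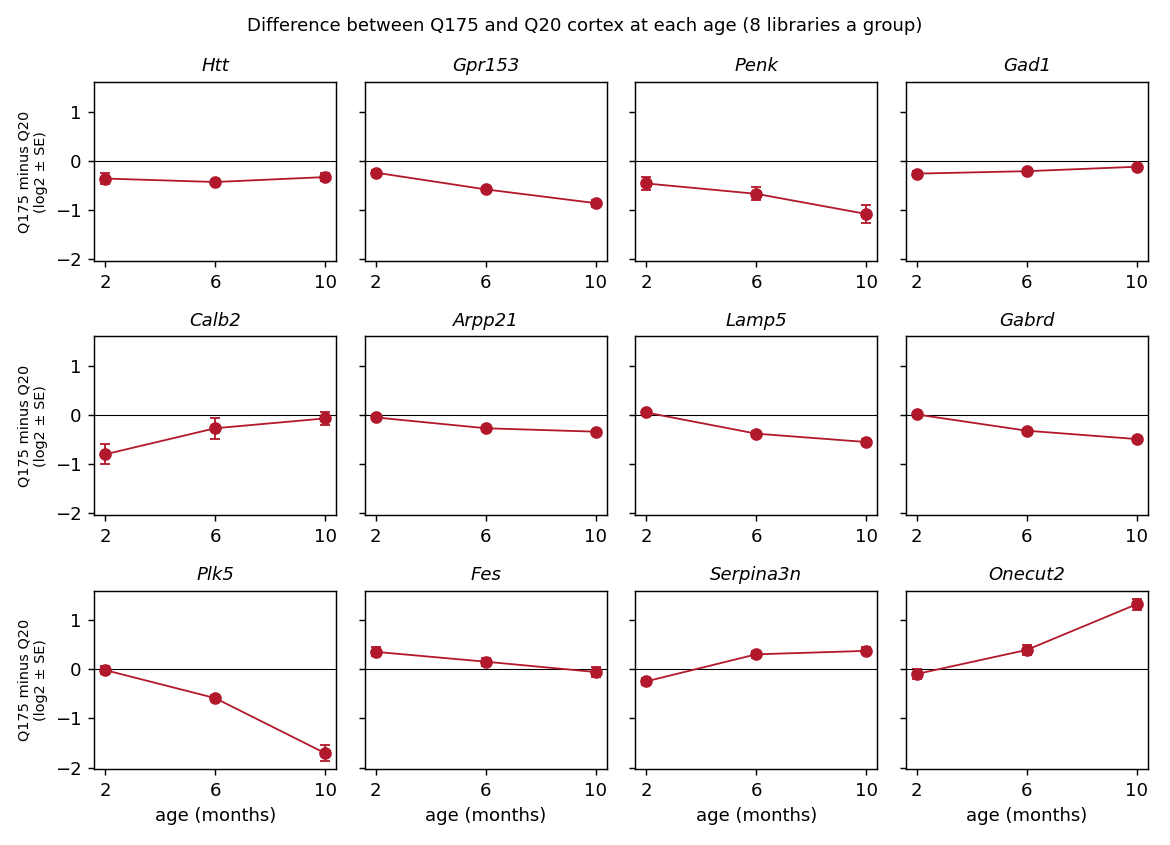
Log2 difference between Q175 and Q20 (vertical axis, ± SE) at 2, 6 and 10 months for 12 genes, each age fitted with 8 libraries a group. Htt stays between -0.43 and -0.33, Gpr153 and Penk are further from 0 at each later age, Calb2 is nearer to 0, and Lamp5, Gabrd and Plk5 are near 0 at 2 months.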

How the data were processed

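The authors deposited estimated counts per gene and library, of which 17.7% were not whole, and FPKM values for the same libraries, in tables of 39179 gene IDs. RNA was polyA-selected from flash-frozen cortex, per the labels' protocols. Per the submitters' processing notes, CASAVA 1.8.2 was used. The aligner, counting tool, genome build and strand setting were not given in the sources used here. Symbols (37607 of the IDs) and positions come from GENCODE M21 (GRCm38).

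Counts were rounded, filtered with filterByExpr of edgeR 4.0.16 by genotype (minimum count 10, minimum total 15) and scaled by TMM. CPM values use those scaled library sizes. Two-sided quasi-likelihood F tests (robust) were run with sex as a covariate over all 56 libraries of 2 months, and over the 48 Q175 and Q20 libraries for differences between ages. Benjamini-Hochberg adjustment ran over every gene of a fit, and adjusted p under 0.05 was called. Standard errors are the estimate over the square root of F. Within Q175 and Q20, every pair of libraries differed by more than counting error (lowest chi-square 4.68 per degree of freedom). Precision rests on the spread between libraries.

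Named genes are those with the smallest p (8 each way where none passed), Htt, and genes that passed within 5 Mb of it. To these come up to 3 members of each list and 3 each way of each interaction. Clone-named models were left out, and some named genes are not given in the text. Ush1g, Shisa8, Pcp4l1, Sp7, Cenpt, Ctxn3, Gm5067, Gm11725, Msantd1 and the further olfactory markers were named after their values were seen. The lists held 641 entries, of which 638 matched. The comparison, lists and tests were chosen with earlier results of these data known. Alternatives were DESeq2 1.42.0 and its size factors, no filter, no sex term, a replicate block, 2 library name terms, other sets of libraries, limma 3.58.1 with quality weights or on log2 FPKM (pseudocounts 0.1 and 1, mean of at least 0.1), 1 sex alone, and leaving out each library. R 4.3.3 was used.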

Additional observations from a re-analysis of the deposited data

Results flagged for a closer look

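In all, 154 sets of 8 values (42 genes and 35 summed lists in each genotype) were checked for 1 library far from the others, by the gap to its nearest neighbour as a share of the group's range, by Dixon's test at the 95% level. Chance alone flags about 1 in 20 groups. Q175 male 3 was the high library for Cacng5 at 19.4 CPM, Gng4 at 71.8, Sp8 at 4.99, Dlx1 at 52, Pbx3 at 20.5, Doc2g at 14.1, Th at 8.49, Scgn at 2.15, Eomes at 4.09, Ush1g at 0.967, Sp7 at 2.96 and the summed olfactory bulb list at 438 CPM. Q175 female 1 was the high library for Mcm5 at 7.85 CPM and for Onecut2 at 5.68 CPM. Q175 female 2 was high for Arpp21 at 450 CPM, and Q20 male 3 was high for it at 470 CPM. Q175 male 2 had summed levels of 1643 CPM for choroid plexus and 1073 CPM for the liver list, which also holds the choroid gene Ttr, and Q175 male 1 had 296 CPM for reactive glia. In Q20, female 4 was high for Capn1 at 19.7 CPM, male 2 for Serpina3n at 11.6 CPM, and female 2 for Scn4b at 140 CPM and for the summed striatal list at 1668 CPM.

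The Q175 effect differed between ages by the interaction test of edgeR with Benjamini-Hochberg adjustment. From 2 to 6 months the log2 change of the effect was -0.34 for Gpr153, -0.43 for Scn4b, 0.55 for Serpina3n, -0.42 for Lamp5, -0.22 for Arpp21, -0.32 for Gabrd, -0.57 for Plk5 and 0.98 for Shisa8. From 2 to 10 months it was -0.62 for Gpr153, 0.73 for Calb2, -0.41 for Fes, -0.61 for Penk, 0.79 for Gng4, 0.56 for Syt6, 0.62 for Serpina3n, -0.60 for Lamp5, -0.28 for Arpp21, -0.49 for Gabrd and -1.69 for Plk5. Over the same span it was 1.37 for Ush1g, 0.88 for Shisa8, 1.31 for Sp7, 0.79 for Ctxn3 and 1.42 for Onecut2.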

How the results depend on the processing

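The number of genes called between Q175 and Q20 at 2 months was 0 in the reported fit and 3 with DESeq2, 5 with the 16 libraries alone, 1 without low-correlation libraries (6 left in each genotype), 3 without the 4 libraries of other genotypes, 11 with quality weights and 33 with all ages, and it ran from 0 to 16 when 1 library was left out. The 16 calls were those without Q175 male 3, and 1 call (Rerg) was made without Q175 female 1. It was 0 under the other alternatives. With the replicate number as a replicate block the count was 0 and the adjusted p of Htt was 0.41. Same-numbered libraries did not deviate together (correlations of -0.24 to 0.08 over 8 numbers), so that no pairing by number was seen, though these values cannot exclude one. The difference between sexes gave 0 under each alternative run. The 6-month interaction gave 50 genes with no filter and 191 with DESeq2, against 101, and the 10-month one gave 89 without low-correlation libraries, against 853. Q80 against Q20 gave 0, Q92 gave 9 and Q140 gave 3 without low-correlation libraries. Of 1427 values of 42 genes under alternatives, 1345 kept direction and side of the threshold, 61 newly passed and 21 changed sign, all from values that had not passed. With the olfactory covariate, the signs changed for the list's own members Gng4 (0.01), Doc2g (0.01) and Th (0.08), which the construction of the covariate favours, and for Shisa8 (0.04), Lamp5 (-0.03) and Gabrd (-0.03). Lamp5 (-0.01) and Gabrd (-0.04) changed sign without low-correlation libraries, Gabrd with quality weights or log2 FPKM (0.00) and in females (-0.01), and Plk5 with the L token term (0.07) and in males (0.04). With 1 library left out, Gabrd was -0.01 to 0.03 and Plk5 -0.06 to 0.03. The cause was not tested. The median standard error of 0.0785 limits what a single gene can show.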
